A study of Arabidopsis thaliana with 24 samples.

Results

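The chloroplast genome genes were the rows of the count table whose identifier starts with ATCG. Of the 134 such rows, 93 had at least 5 reads in at least 6 of the 24 libraries and are described here, out of 21366 rows kept among 37813 in the whole table. The libraries came from whole rosettes of *Arabidopsis thaliana*, all in the Col-0 gl1 background, which the wild type also carries. The 8 groups were *phot1*, *phot2*, and *phot1phot2* mutants and the wild type, each sampled 30 min after a UV-C dose of 100 mJ cm-2 or left non-treated, with 3 biological replicates of at least 4 pooled rosettes per group. The plants were 4 weeks old by the sample labels, and the methods give a younger age. Of the 93 genes, 72 passed the read limit in the non-treated libraries alone, and 21 passed only through the UV-C libraries. For these 21 the limit itself favors genes that are higher after UV-C. Counts and medians of fold changes are therefore given over the 72 or over both sets, and the 21 are named as such where they appear.

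The chloroplast genome keeps a small set of genes for photosynthesis and for its own gene expression, while most chloroplast proteins are encoded in the nucleus. It holds core subunits of photosystem I and photosystem II, the cytochrome b6f complex, ATP synthase, the NDH complex of cyclic electron flow, the large subunit of Rubisco, ribosomal proteins, tRNAs, rRNAs, and the subunits of a bacterial-type RNA polymerase. Many of these genes are transcribed together in polycistronic units and are later processed. In chloroplasts a poly-A tail is short-lived and marks RNA for decay, in contrast to nuclear mRNA, where it marks mature transcripts.

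The libraries were made from RNA captured on poly-T beads, so a value here is the amount of a transcript that was captured and counted. The amount of a transcript and the share of it that was captured cannot be told apart, nor can the number of chloroplasts or cells and the RNA in each. Total counts were 20897905 to 28723145 after UV-C (median 24570600) and 33200727 to 41902444 without treatment (median 38155600). The sheet numbers in the labels run from 16 to 27 for UV-C libraries and from 1 to 12 for non-treated libraries, so this numbering and the treatment cannot be told apart. *PHOT1* averaged 115 ± 4.73 CPM (read counts relative to library size after TMM scaling) in non-treated *phot1* and 292 ± 17.4 CPM in the non-treated wild type, and *PHOT2* averaged 248 ± 12.9 CPM in non-treated *phot2* and 408 ± 5.04 CPM in the non-treated wild type (SD, n = 3 each). The leaf gene *RBCS1A*, a small subunit of Rubisco, averaged 15097 ± 625 CPM in the wild type after UV-C and 18415 ± 1347 CPM in the non-treated wild type (SD, n = 3 each).

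Chloroplast genome rows took 1.58% to 2.34% of counted reads after UV-C (median 1.95%) and 0.0140% to 0.0286% without treatment (median 0.0176%), a ratio of medians of 110. The 2 ranges lie far apart in every genotype. Other RNAs that carry no stable poly-A tail were higher in the same libraries. Mitochondrial genome rows took 0.414% to 0.572% after UV-C and 0.00578% to 0.0117% without treatment, a ratio of medians of 62.4. The 4 nuclear rRNA loci took 1.77% to 3.19% after UV-C and 0.00820% to 0.0322% without treatment, a ratio of medians of 219. Nuclear snRNA rows differed by a ratio of 2.80, snoRNA rows by 1.33, and nuclear tRNA rows by 1.17, and the ranges of the last 2 overlapped. The part of this difference between the libraries in the chloroplast results was not tested, and every UV-C value below has to be read beside it.

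**Figure D1:**
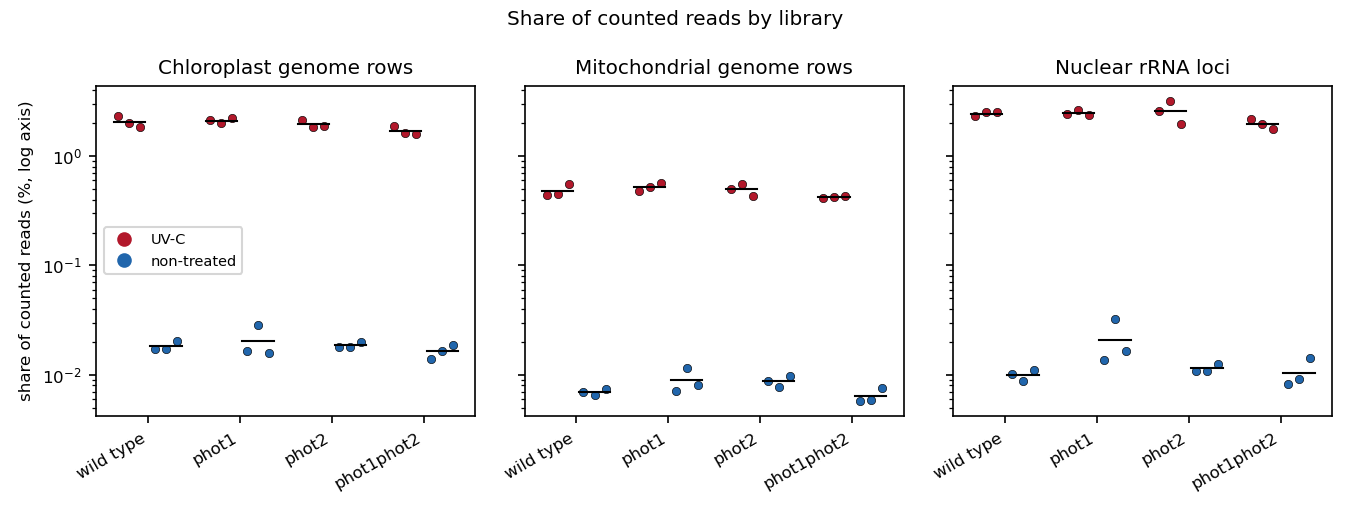
Share of counted reads (%, log axis) from chloroplast genome rows, mitochondrial genome rows, and nuclear rRNA loci in each library, by genotype; points are the 3 libraries of a group and bars their mean. For each of these RNAs the 12 UV-C libraries lie above the 12 non-treated libraries, with chloroplast shares of 1.58% to 2.34% after UV-C and 0.0140% to 0.0286% without treatment.

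One library stood apart. The non-treated *phot1* replicate 2 had 10760 reads from the 93 genes and the highest non-treated chloroplast share (0.0286%), with 4190 reads of *psbA* against 1446 and 1187 in the other non-treated *phot1* libraries. It also had the highest non-treated share of nuclear rRNA (0.0322%) and of mitochondrial rows (0.0117%). Without it the highest non-treated shares were 0.0202% for chloroplast rows, 0.0166% for nuclear rRNA, and 0.00969% for mitochondrial rows. Values of *psbA*, *rbcL*, *psbC*, and *psaA*, and of several read shares, are also given without it. These are not the genes that it moved most. Without it the UV-C log2 fold change in *phot1* went from 5.83 to 8.70 for *rps16*, 3.83 to 6.21 for *trnQ*, and 6.73 to 8.97 for *rpl20*. These were the largest shifts, and the 3 genes had only 3, 2, and 8 reads in that library.

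To show which genes the results turn on, the start regions of *psbA* and *rbcL*, among the genes with the largest UV-C fold changes, are set beside those of *rpoB* and *rpl32*, among those with the smallest. Each sequence runs from 250 bases before the first base of the start codon to 50 bases from it on, in the chloroplast sequence of RefSeq (TAIR10.1), and capitals mark TTGACA and TATAAT, the promoter elements of bacterial type, searched on both strands. *psbA* lies at Pltd:383-1444 on the minus strand, *rbcL* at Pltd:54958-56397 on the plus strand, *rpoB* at Pltd:23111-26329 on the minus strand, and *rpl32* at Pltd:113449-113607 on the plus strand.
psbA: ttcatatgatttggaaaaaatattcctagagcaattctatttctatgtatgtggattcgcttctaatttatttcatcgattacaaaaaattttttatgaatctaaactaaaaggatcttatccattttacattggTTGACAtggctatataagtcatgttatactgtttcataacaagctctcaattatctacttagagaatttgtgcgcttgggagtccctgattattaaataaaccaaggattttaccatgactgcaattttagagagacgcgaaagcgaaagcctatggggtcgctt
rbcL: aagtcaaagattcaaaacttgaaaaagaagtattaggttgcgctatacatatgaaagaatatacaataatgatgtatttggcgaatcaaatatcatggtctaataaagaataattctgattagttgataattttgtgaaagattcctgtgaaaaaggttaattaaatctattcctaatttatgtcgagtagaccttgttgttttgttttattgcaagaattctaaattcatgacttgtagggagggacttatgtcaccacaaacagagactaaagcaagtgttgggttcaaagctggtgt
rpoB: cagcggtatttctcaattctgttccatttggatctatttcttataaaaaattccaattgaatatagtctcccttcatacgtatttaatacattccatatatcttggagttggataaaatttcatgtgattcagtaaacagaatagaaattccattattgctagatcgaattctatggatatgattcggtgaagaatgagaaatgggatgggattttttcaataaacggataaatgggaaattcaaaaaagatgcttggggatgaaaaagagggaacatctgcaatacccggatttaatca
rpl32: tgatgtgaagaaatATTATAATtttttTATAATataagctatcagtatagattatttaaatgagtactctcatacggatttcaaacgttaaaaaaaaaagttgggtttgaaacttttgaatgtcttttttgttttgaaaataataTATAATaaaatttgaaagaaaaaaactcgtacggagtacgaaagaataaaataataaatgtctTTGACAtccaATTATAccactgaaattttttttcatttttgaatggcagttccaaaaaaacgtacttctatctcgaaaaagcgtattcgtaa
TTGACA was found 115 to 110 bases before the *psbA* start and 42 to 37 bases before the *rpl32* start, TATAAT was found at 5 places in the *rpl32* window, and neither was found in the windows of *rbcL* and *rpoB*. Over the 130 rows with a RefSeq match, 21.5% of windows held TTGACA, 38.5% held TATAAT, and 13 windows held both. A match is only a description of these letters.

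The tRNA genes with the largest and the smallest fold change, *trnS* (ATCG00290, Pltd:35312-35403) and *trnC* (Pltd:27373-27443), are shown as the table lists them, on the plus strand. RefSeq places this *trnS* on the minus strand.
trnS (ATCG00290): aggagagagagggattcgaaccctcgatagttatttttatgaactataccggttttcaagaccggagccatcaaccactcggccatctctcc
trnC: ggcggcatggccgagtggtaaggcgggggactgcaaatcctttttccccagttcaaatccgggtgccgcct

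After UV-C the chloroplast genes rose, but by very unequal amounts. Of the 93 genes, *phot1* had 92 called higher (7.35% of all genes tested), *phot2* had 91 (8.85%), *phot1phot2* had 90 (8.09%), and the wild type had 92 (7.96%), at an adjusted p under 0.01 in edgeR's quasi-likelihood test and a log2 fold change over 1. Among the 72 genes kept by the non-treated libraries, 72 were called higher in *phot1*, 72 in *phot2*, 70 in *phot1phot2*, and 71 in the wild type. None of the 72 was called lower, against 2.23% of all genes tested in *phot1*, 2.56% in *phot2*, 3.84% in *phot1phot2*, and 2.49% in the wild type. The fitted log2 fold change was above 0 for all 72 in each genotype. Both statements also hold for the 21 kept only with the UV-C libraries, which were selected partly by their UV-C reads. The mean log2 fold change over the 4 genotypes had a median of 5.88 over the 72 genes and reached from 1.40 to 8.55, while the median over all genes tested was within 0.01 of 0. In 70 of the 72 genes all 12 UV-C libraries lay above all 12 non-treated libraries (9.57% of all genes tested). The 7 gene and genotype pairs that were not called belonged to *trnC*, *trnE*, *trnfM*, and *trnM*, tRNA genes with few reads.

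**Figure D2:**
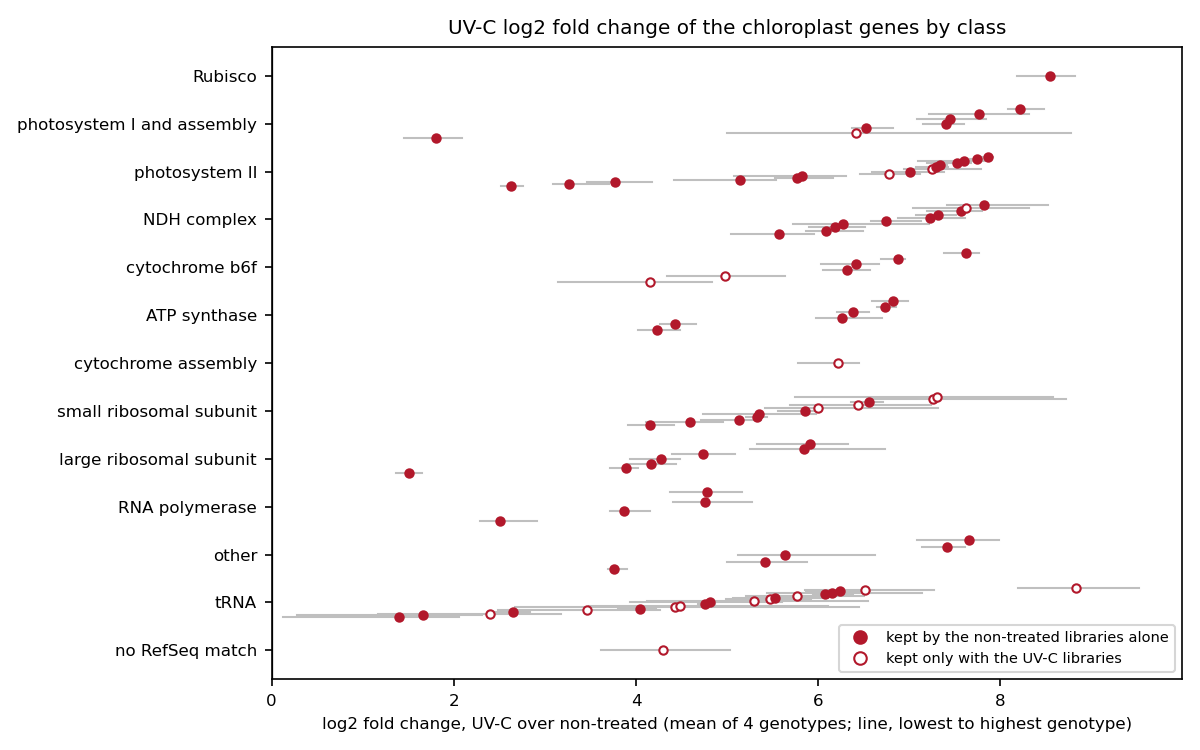
Mean log2 fold change over the 4 genotypes (UV-C over non-treated) of each chloroplast gene, by class; lines run from the lowest to the highest genotype, filled points are the 72 genes kept by the non-treated libraries alone, and open points are the 21 kept only with the UV-C libraries. The means run from 1.40 to 8.83, with *rbcL* at 8.55 and the RNA polymerase genes between 2.51 and 4.78.

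The gene of the large subunit of Rubisco, *rbcL*, had the largest fold change among the 72 genes. Its level was 4907 to 6978 CPM after UV-C (median 5811) and 9.07 to 36.7 CPM without treatment (median 15.8). The 2 ranges did not overlap, and the highest non-treated library was the *phot1* replicate 2, with 18.4 CPM as the next highest. The log2 fold change of *rbcL* was 8.18 ± 0.31 in *phot1*, 8.55 ± 0.31 in *phot2*, 8.82 ± 0.32 in *phot1phot2*, and 8.65 ± 0.32 in the wild type (SE, largest adjusted p = 1.64e-15). Without that library it was 8.69 in *phot1*.

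The 13 photosystem II genes among the 72 were called higher in every genotype, and *psbF* and *psbZ* passed the read limit only through the UV-C libraries. *psbA*, which encodes the D1 reaction center protein, had the highest level per kb of this class, with 5540 to 8537 CPM after UV-C (median 7210.1) and 21.5 to 101 CPM without treatment (median 33.3), or up to 42.1 CPM without the library that stood apart. Its log2 fold change was 7.10 ± 0.36 in *phot1*, 7.57 ± 0.37 in *phot2*, 7.83 ± 0.38 in *phot1phot2*, and 7.89 ± 0.38 in the wild type, and it was 7.85 in *phot1* without that library. *psbC*, for the CP43 antenna protein, had the largest mean of the class (7.86), with 1184 to 1620 CPM after UV-C and 3.72 to 8.62 CPM without treatment (up to 6.38 CPM without that library). *psbM*, for a small subunit, had the smallest (2.63), with 0.946 to 2.36 CPM after UV-C and 0.149 to 0.409 CPM without treatment.

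The 6 genes of photosystem I and its assembly among the 72 were also called higher in every genotype, with means between 1.81 and 8.22, and *psaI* passed the read limit only through the UV-C libraries. *psaA*, for a reaction center protein that binds the primary donor, had 930 to 1479 CPM after UV-C (median 1175) and 2.38 to 7.13 CPM without treatment (median 3.67, and up to 5.37 CPM without the *phot1* replicate 2), with a mean log2 fold change of 8.22. *psaJ*, for a small membrane subunit, had 290 to 579 reads after UV-C and 169 to 298 without treatment, in deeper libraries, with a mean of 1.81. Per kb, *psaJ* was the highest of the 93 genes without treatment and rank 27 after UV-C, whereas *psaA* was rank 9 after UV-C and rank 41 without treatment. The ratio of *psaJ* to *psaA* per kb was 0.226 to 0.358 after UV-C and 12.2 to 44.8 without treatment.

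**Figure D3:**
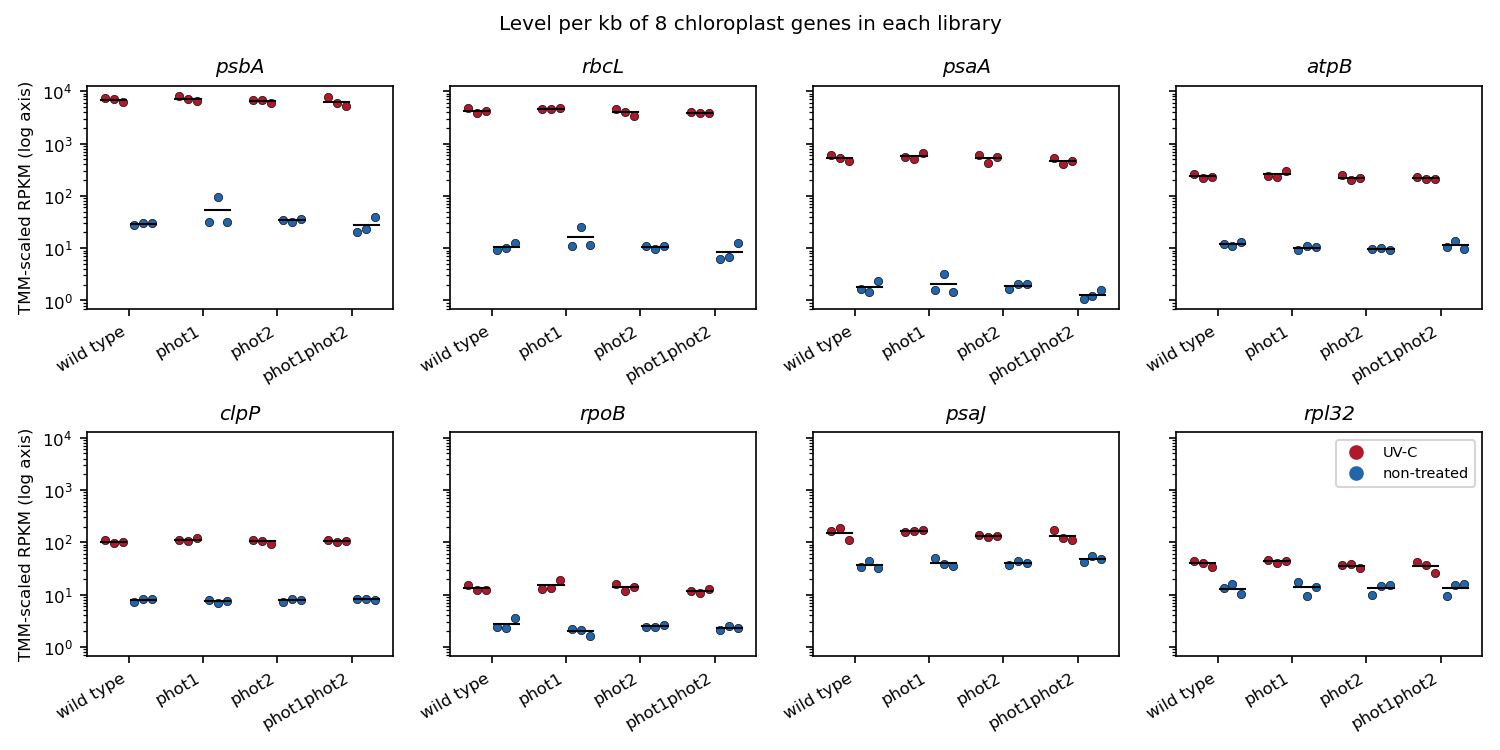
Level per kb (TMM-scaled RPKM, log axis) of 8 chloroplast genes in each library, by genotype; points are the 3 libraries of a group and bars their mean. UV-C and non-treated libraries are far apart for *psbA*, *rbcL*, and *psaA*, and close for *psaJ* and *rpl32*, whose mean log2 fold changes were 1.81 and 1.51.

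Among the 72, the 4 cytochrome b6f, 6 ATP synthase, and 9 NDH genes were called higher in the 4 genotypes, while *petL*, *petG*, and *ndhE* passed the read limit only through the UV-C libraries. *petB*, for cytochrome b6, had the largest mean log2 fold change of its complex (7.62), and *petL*, for a small subunit, the smallest (4.16), although *petL* had 4 to 14 reads per library after UV-C and 0 to 3 without treatment. *petD*, for subunit IV, was the highest per kb over all libraries and without treatment, with a mean of 6.88, and *petB* was the highest after UV-C, by a small margin. Among the ATP synthase genes *atpH*, for the ring subunit c, was the highest per kb after UV-C and over all libraries, with 122 to 164 CPM after UV-C and 1.04 to 1.57 CPM without treatment, where *atpE* was the highest per kb. *atpF*, for a stator subunit, had the largest mean (6.82) and *atpE*, for the epsilon subunit, the smallest (4.23). The reads of *atpE* and *atpB* are uncertain at their overlap, since reads that matched both genes were not counted. The same holds for other overlapping genes, such as *psbD* with *psbC* and *rpl22* with *rps3*. In the NDH complex *ndhH* had the largest mean (7.82) and *ndhD* the smallest (5.57), and *ndhJ* was the highest per kb (mean 6.19). *ccsA*, for cytochrome c assembly and also kept only through the UV-C libraries, had 135 to 210 reads after UV-C and 1 to 11 without treatment.

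Among the 72, the mean log2 fold changes of RNA polymerase and ribosomal protein genes lay between 1.51 and 6.56. The 4 RNA polymerase subunits ranged from 2.51 for *rpoB* (beta subunit) to 4.78 for *rpoA* (alpha subunit). *rpoB* had 35.3 to 60.9 CPM after UV-C (median 41.2) and 5.32 to 11.4 CPM without treatment (median 7.54), with no overlap. Its log2 fold change was 2.91 ± 0.17 in *phot1*, 2.48 ± 0.16 in *phot2*, 2.37 ± 0.17 in *phot1phot2*, and 2.28 ± 0.16 in the wild type (SE, largest adjusted p = 1.11e-10). The 7 large ribosomal subunit genes had a median of 4.27 and ran from 1.51 for *rpl32* to 5.91 for *rpl33*. *rpl32* had 100 to 164 reads per library after UV-C and 61 to 121 without treatment, which corresponds to 4.10 to 7.31 CPM and 1.51 to 2.82 CPM. *rpl16* was the highest per kb of this class after UV-C and over all libraries (mean 3.89), and *rpl32* without treatment. The 7 small ribosomal subunit genes kept by the non-treated libraries had a median of 5.32, with *rps3* lowest (4.16) and *rps14* the highest per kb and largest (6.56). *rps15* had 11 to 39 reads after UV-C and 3 reads in all 12 non-treated libraries together, too few for a fold change.

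The 19 tRNA rows are short and many of them had few reads, and 9 of them passed the limit only through the UV-C libraries. *trnS* (ATCG00090) was the highest per kb, with 804 to 1226 reads after UV-C and 55 to 97 without treatment. *trnS* (ATCG00290), whose sequence is given above and which is one of these 9, had 379 to 716 reads after UV-C and 0 to 6 without treatment. Strand was not used in counting, so reads from the opposite strand are included. *trnC* had 2 to 19 reads after UV-C and 2 to 13 without treatment, and it was called higher in *phot1* and *phot2* only, while its log2 fold change in the wild type was 0.12 ± 0.54 (adjusted p = 0.867). The call in *phot1* was lost without the non-treated replicate 1 or the UV-C replicate 1 or 3, with a log2 fold change of 1.61 to 1.90, and when only its 2 groups were fitted (1.99), and the call in *phot2* was lost without the non-treated replicate 2 or the UV-C replicate 3, with 1.64 and 1.75. Near the limit, *trnM* had 0 to 12 reads after UV-C and 0 to 3 without treatment, with 5 reads or more in 7 libraries. Just outside it, *trnD* had 5 reads or more in 4 libraries and *trnY* in 1.

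Of the other genes, *clpP*, for a protease subunit, was the highest per kb and had the smallest mean log2 fold change (3.76), with 55.5 to 70.7 CPM after UV-C and 4.08 to 4.89 CPM without treatment. *accD*, for a subunit of acetyl-CoA carboxylase, had the largest (7.66), with 526 to 767 reads after UV-C and 1 to 11 without treatment. ATCG09900, which has no RefSeq match, had 11 to 25 reads after UV-C and 0 to 5 without treatment. Of the 41 rows that were not kept, 36 lie inside the inverted repeat, whose 2 copies are identical, so their reads matched 2 places and were left out. The 7 rRNA rows lie there and held 5 reads in all libraries together, so chloroplast rRNA is not measured by this table.

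Within the chloroplast reads, the shares of the genes changed as well. These shares are descriptive. *psbA* and *rbcL* together took 56.8% to 63.7% of the reads of the 93 genes after UV-C (median 61.4%) and 22.5% to 53.1% without treatment (median 30.6%), or up to 35.3% without the library that stood apart. The share of *rbcL* was 25.1% to 29.2% after UV-C and 6.25% to 14.1% without treatment (up to 11.4% without that library), without overlap. The share of *psbA* was 28.2% to 36.7% in the UV-C libraries and 16.2% to 38.9% in the non-treated libraries, where 38.9% was the *phot1* replicate 2 and the next highest was 24.8%. RNA polymerase genes took 0.571% to 0.846% after UV-C and 4.37% to 10.1% without treatment. ATP synthase genes took 5.15% to 6.29% after UV-C and 11.9% to 23.7% without treatment. Large ribosomal subunit genes took 0.537% to 0.687% after UV-C and 2.91% to 6.51% without treatment. The lowest non-treated share of these 3 classes was that of the same library, and without it the lowest was 6.43% for RNA polymerase, 15.5% for ATP synthase, and 4.14% for large ribosomal subunit genes. Among the 72 genes the share was higher in all UV-C libraries for 6 (*psbD*, *psbC*, *psaA*, *rbcL*, *psbB*, and *petB*), lower in all of them for 31, and overlapping for 35.

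**Figure D4:**
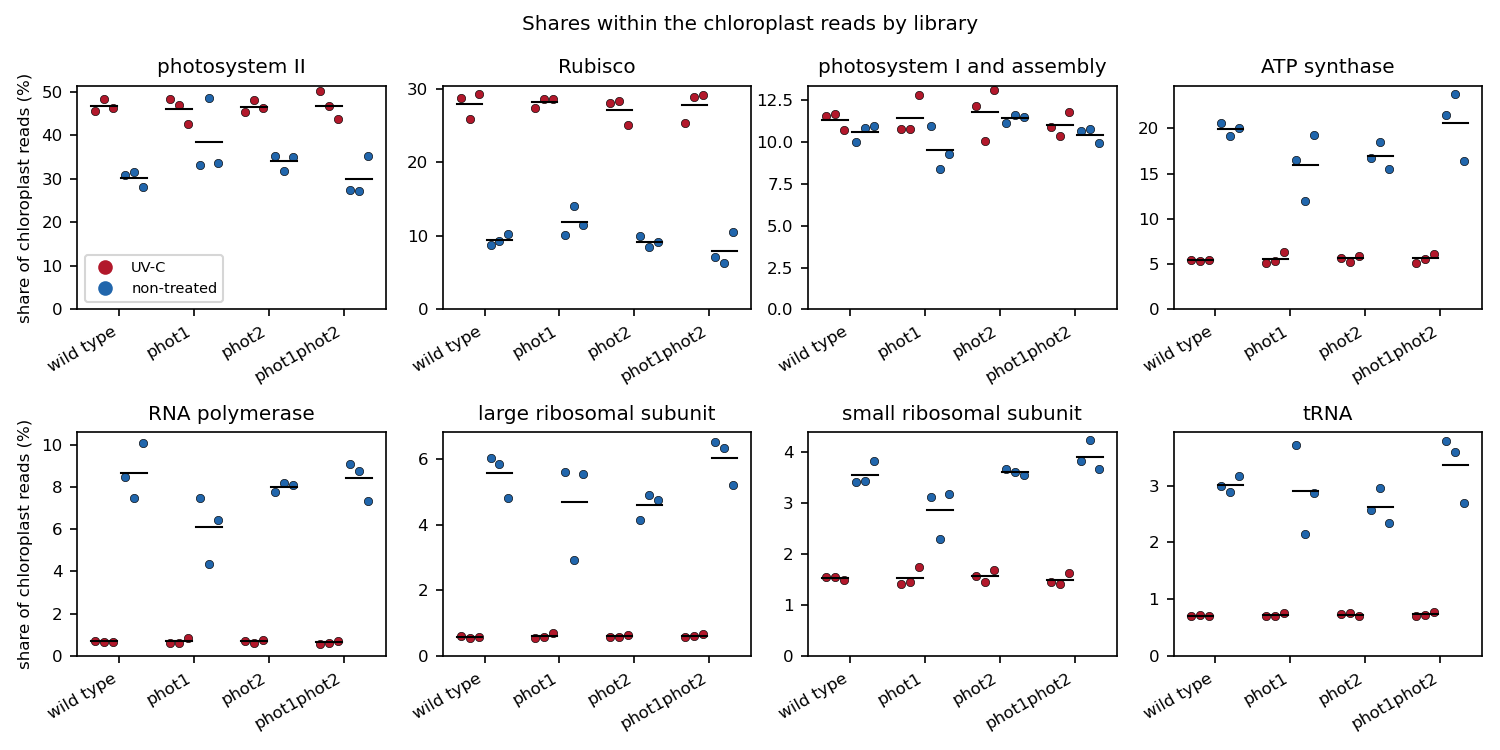
Share of the chloroplast reads (%) taken by 8 gene classes in each library, by genotype; points are the 3 libraries of a group and bars their mean. The Rubisco share is 25.1% to 29.2% after UV-C and 6.25% to 14.1% without treatment, and the RNA polymerase share is 0.571% to 0.846% after UV-C and 4.37% to 10.1% without treatment.

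Of 9 polycistronic units with 3 or more of the 72 genes, the mean log2 fold change increased at each step of the gene order in 1, decreased at each step in 2, and did neither in 6. Along *rpoB*-*rpoC1*-*rpoC2*-*rps2* the mean log2 fold change was 2.51, 3.87, 4.76, and 5.35 from the 5′ to the 3′ gene. Along *psaA*-*psaB*-*rps14* the order was the other way, with 8.22, 7.40, and 6.56, and along *psbE*-*psbL*-*psbJ* it was 7.30, 5.82, and 5.14, with *psbF*, kept only through the UV-C libraries, at 6.78. In the *ndhH* unit the genes before the last lay between 7.23 and 7.82 and the last, *ndhD*, at 5.57. In the *rpoB*, *psaA*, and *psbE* units the ratio of the last to the first gene per kb varied less, relative to its size, after UV-C than without treatment. Reads were few without treatment. *rps2* had 9 to 23 reads without treatment and 239 to 496 after UV-C, and *psbE* had 15 to 51 and 1885 to 2835. The part of low read numbers in the spread of these ratios was not tested. For *rps2* over *rpoB* it was 1.37 to 1.66 after UV-C and 0.131 to 0.309 without treatment. For *rps14* over *psaA* it was 1.30 to 1.46 after UV-C and 2.97 to 6.70 without treatment. For *psbJ* over *psbE* it was 1.35 to 1.46 after UV-C and 3.16 to 11.7 without treatment. The genes of *atpB*-*atpE* had similar means (4.43 and 4.23), as had *psbD* and *psbC* (7.74 and 7.86), and the *atpI*-*atpH*-*atpF*-*atpA* unit lay between 6.26 and 6.82. The genes of the *ndhC* unit lay between 6.08 and 6.27, those of the *psbB* unit between 5.77 and 7.62, those of the *psaI* unit between 5.42 and 7.77, and the 8 of the *rpl23* unit between 3.89 and 5.13, all among the 72 and in no steady order.

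**Figure D5:**
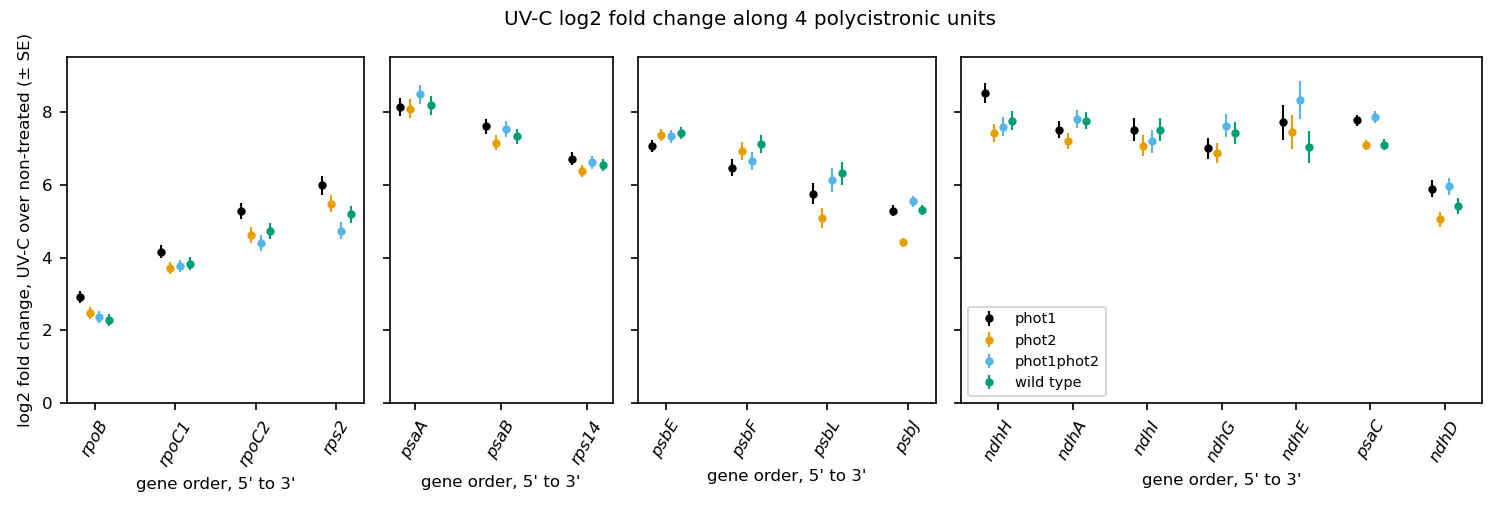
Log2 fold change (UV-C over non-treated, ± SE) of the genes of 4 polycistronic units, chosen after their values were seen, in 5′ to 3′ order, with a color for each genotype; *psbF* and *ndhE* were kept only through the UV-C libraries. The mean rises along the *rpoB* unit, with 2.51 at *rpoB* and 5.35 at *rps2*, and falls along the *psaA* and *psbE* units, with 8.22 at *psaA* and 5.14 at *psbJ*.

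A chosen list of 10 genes transcribed mainly by the plastid-encoded polymerase had a median of 7.61, with *psaJ* as low as 1.81. A list of 4 genes of the nuclear-encoded polymerase had a median of 4.31. It holds *rpoB*, *rpoC1*, and *rpoC2*, which form part of a single unit, and *accD*, which was as high as 7.66. The lists do not cover all genes of either polymerase. Across the 72 genes the level per kb after UV-C and without treatment correlated with Spearman's rho = 0.656, the log2 fold change and gene length with rho = 0.390, and the log2 fold change and the longest run of A with rho = 0.118. For length, Pearson's r was only 0.164. With the percentage of A, rho was −0.195, and with that of G and C 0.0509. Over the 62 protein-coding genes among the 72, rho was 0.303 for length and −0.0537 for the run of A. There it was −0.427 for the percentage of A and 0.298 for that of G and C. These values are across genes of the same libraries and are given as a description.

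Between genotypes no chloroplast gene was called in any of the 9 comparisons. Without treatment, 0 genes were called in *phot1* (0.201% of all genes tested), *phot2* (0.828%), and *phot1phot2* (0.749%) against the wild type, with 9, 3, and 3 genes at an unadjusted p under 0.05. After UV-C, 0 were called in *phot1* (0.145%), *phot2* (1.99%), and *phot1phot2* (3.16%), with 4, 0, and 5 genes at an unadjusted p under 0.05. The UV-C effect differed from that of the wild type for 0 genes in *phot1* (0.00468%), *phot2* (0.351%), and *phot1phot2* (1.45%), with 12, 4, and 4 genes at an unadjusted p under 0.05. The percentages are shares called at both limits. They cannot be set beside the numbers at an unadjusted p under 0.05, for which no share of all genes is given. No result about the chloroplast genes is drawn from those numbers. DESeq2 and edgeR's likelihood ratio test also called 0 genes in these 9 comparisons. The median SE of these log2 fold changes was 0.36 to 0.39 without treatment and 0.16 to 0.17 after UV-C, and that of the differences of the UV-C effect was 0.39 to 0.41. Over the wild type after UV-C, 81 of the 93 genes were above 0 in *phot1*, 28 in *phot2*, and 13 in *phot1phot2*. Their median log2 fold changes were 0.13, −0.05, and −0.16. Without treatment 43, 47, and 41 genes were above 0. Of the counted reads after UV-C, chloroplast rows took 1.99% to 2.21% in *phot1* and 1.85% to 2.14% in *phot2*. They took 1.58% to 1.88% in *phot1phot2* and 1.86% to 2.34% in the wild type. The genes share libraries, and a common direction was not tested.

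One gene came near the limits. *psbJ*, for a small photosystem II subunit, had 184, 114, and 158 reads in non-treated *phot2* and 77, 95, and 76 in the non-treated wild type, without overlap. Its log2 fold change was 0.81 ± 0.16 (adjusted p = 0.00394), under the limit of 1. The difference of its UV-C effect, *phot2* minus wild type, was −0.89 ± 0.19 on the log2 scale, past neither limit in edgeR's quasi-likelihood test (adjusted p = 0.0130). It missed only the fold limit in edgeR's likelihood ratio test (−0.97, adjusted p = 4.74e-06) and in DESeq2 (−0.89, adjusted p = 0.000395). In the quasi-likelihood test without the non-treated *phot2* replicate 2 this difference was −1.06 and was called. Without the non-treated wild-type replicate 1 it was −0.77 (adjusted p = 0.0568). For *psbA* the log2 fold change of non-treated *phot1* over the wild type was 0.86 ± 0.29 (adjusted p = 0.181), and 0.11 without the library that stood apart. For *ndhF*, an NDH subunit, that of *phot1phot2* over the wild type after UV-C was −0.37 ± 0.13 (adjusted p = 0.0317), which missed both limits.

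Nuclear genes that work with these transcripts stayed within the fold limit, with 2 exceptions. Of 20 genes for the transcription of plastid genes, 0 were called in any genotype after UV-C, with a median log2 fold change of −0.28 to −0.17, although 11 of them in *phot1*, 15 in *phot2*, 13 in *phot1phot2*, and 12 in the wild type had an adjusted p under 0.01 in edgeR's test. Of all genes tested, 35.2% in *phot1*, 39.6% in *phot2*, 42.6% in *phot1phot2*, and 37.2% in the wild type were under the same limit. The sigma factor *SIG5*, which directs the polymerase to *psbD*, had the highest value of the list in each genotype, between 0.61 in *phot2* and 0.89 in *phot1* and the wild type. Of 14 genes for plastid RNA processing and decay, 0 were called higher, and 2 were called lower in *phot2* (2.56% of all genes tested) and in *phot1phot2* (3.84%), namely *RNJ*, a ribonuclease (−1.11 and −1.26), and *CP29A*, an RNA-binding protein (−1.12 and −1.08). Of 13 measured nuclear subunits of the same complexes, 0 were called, with a median of −0.28 to −0.09 and 9 to 11 at an adjusted p under 0.01. *RBCS1A* had a log2 fold change of −0.29 in the wild type, where that of *rbcL* was 8.65. Mitochondrial genome rows were called higher for 40 of 49 genes in the wild type (7.96% of all genes tested), with a median log2 fold change of 3.24. These 49 passed the read limit over all libraries, and rows that passed only through the UV-C libraries were not set apart.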

How the data were processed

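Poly-A RNA of whole rosettes was sequenced as stranded paired-end libraries. Per the labels and the file headers, the authors aligned reads with STAR 2.5.2b and deposited whole read counts per gene from featureCounts (Subread 1.6.2) over Araport11 exons, without strand and without multi-mapping reads. Reads that matched 2 places or 2 genes were therefore lost.

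The software was edgeR 4.0.16, DESeq2 1.42.0, and limma 3.58.1 under R 4.3.3. A gene was kept if 6 or more libraries held 5 or more of its reads. Counts were scaled by TMM and fitted in a single model of 8 groups with glmQLFit and glmQLFTest, with Benjamini-Hochberg adjustment over all 21366 genes. A call needed a log2 fold change beyond 1 in either direction and an adjusted p under 0.01. The 13 contrasts were UV-C in each genotype, each mutant against the wild type under each treatment, and the differences of the UV-C effect. CPM and RPKM were computed from the counts. SEs were derived from the F statistic. The procedure was tested on simulated data.

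Chloroplast rows were matched by position to RefSeq (TAIR10.1), and 130 of 134 had a match. Named genes were, per class, the highest per kb over all 24 libraries and the largest and smallest UV-C log2 fold change, with *rbcL*, *psbA*, and the genes nearest the read limit. *psbJ* and *ndhF* were chosen after their values were seen. The members and lists (classes, units, polymerase use, nuclear genes, other RNAs) were chosen with earlier results of these data known. The alternatives were other tests, scalings, filters, and sample sets. Intervals and SEs cover these samples only.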

Additional observations from a re-analysis of the deposited data

Results flagged for a closer look

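The RNAs outside the 93 genes were higher in all 12 UV-C libraries than in all 12 non-treated libraries in 4 cases. The median share of counted reads after UV-C was 0.466% for mitochondrial genome rows (0.00746% without treatment), 2.39% for nuclear rRNA loci (0.0110% without treatment), and 0.00189% for nuclear snRNA rows (0.000673% without treatment). The 41 chloroplast rows under the read limit held 90 reads after UV-C and 15 without treatment, with a median share of 2.98e-05% after UV-C. Dixon's test for an outlying sample was not applied to the groups of 3 samples, so the library that stood apart was not tested as an outlier.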

How the results depend on the processing

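The chloroplast genes called higher after UV-C numbered 73 of 73 when only protein-coding genes were tested, and otherwise 89 to 93 over all settings. Leaving out 1 library gave 91 to 92 in *phot1*, 89 to 91 in *phot2*, 90 in *phot1phot2*, and 89 to 92 in the wild type. In the other comparisons 0 genes were called in all settings, except for the UV-C effect of *phot2* set against that of the wild type, where leaving out 1 library gave 0 to 1 (*psbJ*, without the non-treated *phot2* replicate 2). The replicate numbers of the sample titles did not pair the samples: in 1 of 12 pairs the correlation of same-numbered libraries was over 0.1 (range −0.112 to 0.131). The labels hold a further number for each library, which differs between some libraries of the same replicate number. Pairing by that number was not tested. The block on the title's replicate number gave 92 genes called higher in *phot1*, 91 in *phot2*, 90 in *phot1phot2*, and 91 in the wild type, and changed no other count. The log2 fold change of *trnC* in the wild type ranged from −0.48 to 0.48 when 1 library was left out, and the cause was not tested. Among the genes named by class, leaving out 1 library moved the log2 fold change by up to 2.24 for *rps15*, 1.63 for ATCG09900, 1.52 for *petL*, 0.75 for *trnS* (ATCG00290), 0.75 for *psbA*, 0.72 for *accD*, 0.68 for *ccsA*, and 0.60 for *ndhD*, without a change of call. Genes outside that choice moved as much or more, such as *rps16*, *trnQ*, and *rpl20*, whose values are given above. The share of chloroplast rows moved by less than the spread between replicates when nuclear reads alone were the denominator. Depth limits the tRNA genes.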
